A study of Mus musculus with 9 samples.

Results

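The proteasome genes described here are the 48 symbols, of 20778 in the deposited table, that begin with Psm followed by a letter from a to g and a number, with Psmb8 and Psmb9 left out. They comprise 14 constitutive members of the 20S core, 17 members of the 19S cap, 3 interferon-induced members (Psmb10, Psme1 and Psme2), 10 assembly factors and other regulators, 2 tissue-restricted core variants (Psma8 and Psmb11) and 2 genes that are not subunits (Psmc3ip and Psme2b). Of the 48, 47 averaged 10 or more across the 9 libraries and were tested. The exception was the testis variant Psma8, listed at 7 in 1 tumour library, at 1 in 1 bioink library and at 0 in the other libraries.

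RNA was sequenced in bulk from 3 groups of 3 libraries. In 3D bioink, GL261 glioblastoma cells labelled with mCherry grew in a fibrin gel together with primary astrocytes, microglia, pericytes and endothelial cells freshly taken from brains of male C57BL/6 mice aged 6 to 10 weeks. In 2D culture, the same kinds of cells shared a petri dish. In both, GL261 was seeded at 1000000 cells per ml. The tumour group came from male immunocompetent C57BL/6 mice (7 weeks old, 5 mice per the protocol) whose striatum received 50000 mCherry-labelled GL261 cells, with brains taken on day 14. All groups thus carried the same tumour line, and each library is a mixture of cells. Fewer cells of a type and less RNA per cell cannot be told apart in such data. Only the gel is recorded as digested before RNA isolation (collagenase II, 600 U per ml, 3 h), so digestion and growth form cannot be told apart. The labels do not say whether the libraries of a group came from separate animals or cultures, so p-values here reflect variation among the sequenced libraries, possibly technical only.

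The proteasome degrades proteins tagged with ubiquitin. Its core is a barrel of alpha and beta rings, and the beta subunits Psmb5, Psmb6 and Psmb7 carry the chymotrypsin-like, caspase-like and trypsin-like sites. The cap binds ubiquitin chains, removes them and feeds the unfolded substrate into the barrel with a ring of ATPases. Interferon gamma induces substitute beta subunits, among them Psmb10 in place of Psmb7, and the PA28 activator made of Psme1 and Psme2, which change the peptides produced for MHC class I. Transcription of many subunits is driven by NFE2L1 when proteasome activity is short, through antioxidant response elements.

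Promoter sequences from RefSeq (GRCm38.p6) were matched for 40 of the 48 members. The windows shown are the 120 bases before the start, 5′ to 3′ on the gene's strand, for the catalytic genes Psmb5 and Psmb6, the ubiquitin receptor Psmd4, the 3 interferon-induced members and the activator Psme4. They cover catalytic sites, the cap member highest per kilobase, the interferon-induced class and the activator that moved against the rest. Capitals mark matches, on either strand, to the antioxidant response element core TGACNNNGC, the NF-Y box CCAAT and the interferon-stimulated response motif (a pair of GAAA words 2 bases apart).
Psmb5 (chr14:54617996-54618115, minus strand): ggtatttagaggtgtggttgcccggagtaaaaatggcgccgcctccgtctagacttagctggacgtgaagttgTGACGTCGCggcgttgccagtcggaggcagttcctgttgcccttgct
Psmb6 (chr11:70525237-70525356, plus strand): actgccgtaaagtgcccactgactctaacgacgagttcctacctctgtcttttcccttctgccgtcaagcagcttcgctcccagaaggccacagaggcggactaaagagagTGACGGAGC
Psmd4 (chr3:95042615-95042734, minus strand): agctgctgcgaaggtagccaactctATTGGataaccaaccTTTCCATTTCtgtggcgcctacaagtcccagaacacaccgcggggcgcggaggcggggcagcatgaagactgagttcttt
Psmb10 (chr8:105938393-105938512, minus strand): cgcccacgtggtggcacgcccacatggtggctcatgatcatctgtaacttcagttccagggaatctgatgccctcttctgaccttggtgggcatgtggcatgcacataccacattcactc
Psme1 (chr14:55578374-55578493, plus strand): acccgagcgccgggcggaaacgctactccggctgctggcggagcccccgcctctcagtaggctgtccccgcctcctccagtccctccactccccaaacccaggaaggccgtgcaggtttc
Psme2 (chr14:55591102-55591221, minus strand): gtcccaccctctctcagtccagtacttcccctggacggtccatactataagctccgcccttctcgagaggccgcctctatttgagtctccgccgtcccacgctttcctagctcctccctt
Psme4 (chr11:30771655-30771774, plus strand): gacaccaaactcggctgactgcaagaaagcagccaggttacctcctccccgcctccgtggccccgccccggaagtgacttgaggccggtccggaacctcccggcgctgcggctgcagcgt
Psmb5 and Psmb6 each hold 1 match to the antioxidant response element core, and Psmd4 holds the NF-Y box and the interferon response motif. The windows of the 3 interferon-induced members and of Psme4 hold none of these letters. Over the 250 bases before the start, with the 3 motifs free to overlap, the antioxidant response element core was found in 4 of 27 core and cap promoters (14.8%), against 10.2% of all 32851 RefSeq promoters. The NF-Y box was found in 10 of the 27 (37%), against 33.8% of all. The interferon response motif was found in 2 of the 27 (7.41%), against 2.98% of all. None of the 4 promoters of the interferon-induced members held any of the 3 motifs in this window. Psme2 has 2 of these promoters, of which only the first is shown above. The bases after the annotated start matched a transcript of the gene for 39 of the 43 member promoters. Which start is used in these cells is not known.

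The deposited values are normalized counts rounded to whole numbers, with no read depth given. Their sum per library lay between 13548461 and 13683978 for 3D bioink, between 15572800 and 15711632 for 2D culture, and between 16320090 and 16388074 for tumours. Replicate 1 of 3D bioink had the lowest limma array weight, 0.236 against 0.688 to 4.96 for the other 8 libraries. Defining markers of the seeded microglia were near absent from both cultures. Of the 6 microglia markers, P2ry12, Cx3cr1 and Aif1 averaged under 10 in 3D bioink and in 2D culture, and the 6 summed to 1150 to 1170 in 3D bioink, 646 to 725 in 2D culture and 17247 to 17902 in tumours. The 4 endothelial markers summed to 3727 to 5977 in 3D bioink, 4078 to 4516 in 2D culture and 4502 to 4778 in tumours, with Cldn5 averaging under 10 in 2D culture. Pecam1 made up most of these sums, with means of 3866, 3650 and 4263 in those groups. Cdh5 was higher in both cultures than in tumours (means 607, 592 and 155). Cldn5 (18, 4.33 and 128) and Kdr (38.7, 31.7 and 103) were highest in tumours. The 4 pericyte markers summed to 2246 to 2379, 853 to 859 and 1342 to 1495 in the same groups, with Kcnj8 under 10 in all 3 and Rgs5 in 2D culture. Cspg4 made up most of these sums (means 1984, 699 and 1319). Pdgfrb (209, 149 and 62.3) was lowest in tumours, and Rgs5 (132, 8.67 and 45.7) was lowest in 2D culture. The 5 astrocyte markers summed to 765 to 812, 338 to 373 and 1252 to 1316, with Aqp4 under 10 in tumours. Gfap (means 375, 166 and 594) and Slc1a3 (222, 71 and 548) made up most of these sums. By contrast Slc1a2 (67.7, 13.7 and 45), Aldh1l1 (107, 87.7 and 90) and Aqp4 (12.7, 11.3 and 8.33) had their highest means in 3D bioink. Of the members, 13 share at least 300 bases at 95% identity or more with a transcript of another gene, mostly pseudogenes, and are uncertain to that extent. They are Psma3, Psma4, Psma5, Psmb3, Psmb5, Psmc1, Psmc3ip, Psmd1, Psmd2, Psmd11, Psmd13, Psme2 and Psme2b. The 3 comparisons share libraries pairwise, so their values are set side by side and not counted as independent.

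In 3D bioink the constitutive proteasome genes stood lower than in tumours almost throughout. Of 14 core members, 13 fell and 1 did not pass, with a median log2 fold change of -0.93 (1.91-fold lower). Of 17 cap members, 13 fell, 2 rose and 2 did not pass, with a median of -0.73. All 3 interferon-induced members fell, with a median of -3.57. Across all 13773 genes tested, 37.3% were called lower and 27.1% higher, and the median log2 fold change was -0.11. Called at least 2-fold lower were 6 of 14 core members, 3 of 17 cap members and all 3 interferon-induced members. Of all genes, 15.6% were called so, and the cap was near that share. Each call is limma's test with Benjamini-Hochberg adjustment over all genes at a threshold of 0.05. When the libraries were scaled to equal sums, 12 core and 12 cap members fell, with medians of -0.67 and -0.47 beside 0.14 for all genes, and 56.1% of all calls were higher, against 42.1% on the deposited scale.

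In 2D culture no constitutive core or cap gene fell against tumours, and most cap genes rose. Of 14 core members, 3 rose, none fell and 11 did not pass, with a median log2 fold change of 0.07. Psma1 (0.56), Psmb3 (0.42) and Psma6 (0.33) were the risers, of which Psma6 did not pass without 2D culture replicate 1 (adjusted p = 0.0533) or tumour replicate 2 (adjusted p = 0.0530). Of 17 cap members, 12 rose and none fell, with a median of 0.27. Psmd11 just missed the threshold (log2 fold change 0.13, adjusted p = 0.0543) and passed under all 4 other scalings. The 3 interferon-induced members fell, with a median of -2.55. The test called 27.3% of all genes higher and 27.0% lower, with a median of 0.01, so the share of core members that rose (21.4%) was near the background while that of the cap (70.6%) was not.

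Constitutive proteasome genes were also lower in the gel than on the dish. In 3D bioink against 2D culture, 13 of 14 core members and 16 of 17 cap members fell, and none rose. The medians were -1.09 for the core (2.13-fold lower) and -1.13 for the cap (2.19-fold lower). Of all genes, 32.2% were called lower and 27.0% higher, with a median of -0.02. Of all calls, 45.6% were higher, against 57.8% with libraries at equal sums and 55.8% at equal upper quartiles, where 13 core and 16 cap members were still called lower. At least 2-fold lower were 8 of 14 core and 10 of 17 cap members, against 10.9% of all genes. Summed over the 14 core genes, the values made up 0.0976% ± 0.0077 of the library sum in 3D bioink, 0.185% ± 0.0019 in 2D culture and 0.169% ± 0.0021 in tumours (SD, n = 3 each). For the 17 cap genes the shares were 0.214% ± 0.0086, 0.4% ± 0.0043 and 0.303% ± 0.0025 in the same groups. Other housekeeping complexes moved in the same libraries. Of 15 tested genes of the CCT chaperonin and the COP9 signalosome, 14 fell and 1 rose in 3D bioink against 2D culture, with a median of -1.11. Of 14 proliferation genes, 13 fell, with a median of -1.37. Their part in the proteasome result was not tested.

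**Figure D1:**
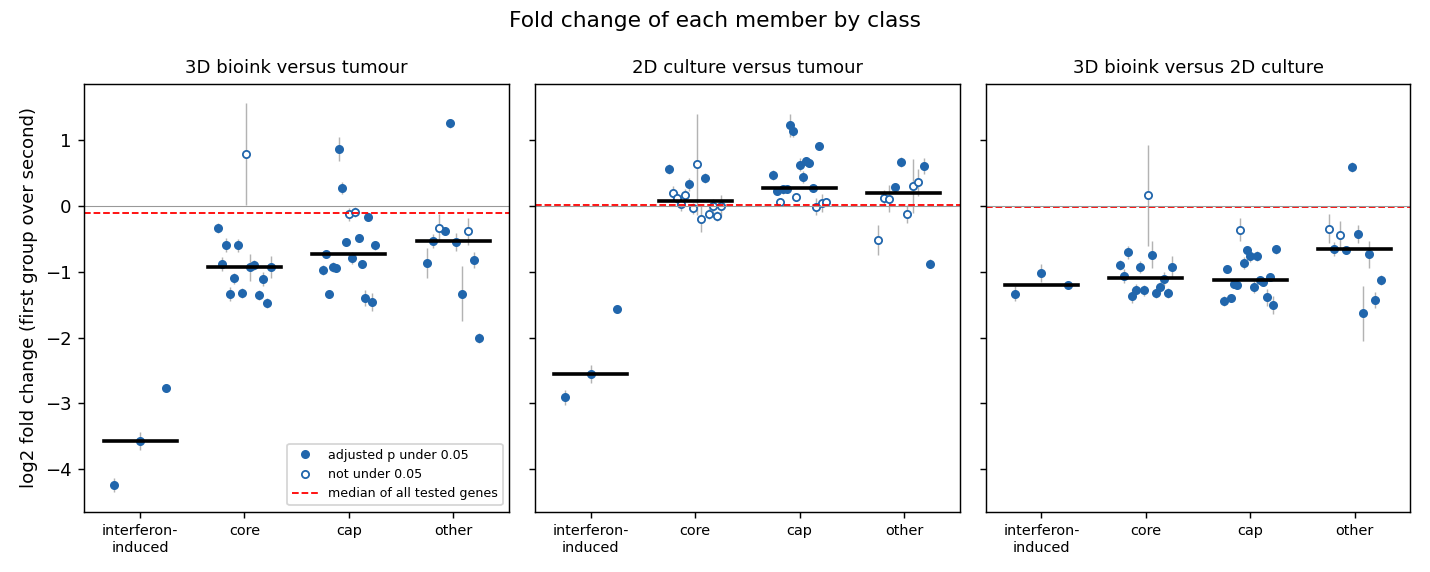
Log2 fold change (vertical axis) of each tested interferon-induced, core, cap and other member (points with standard errors, filled where the adjusted p was under 0.05 and open otherwise) for the 3 comparisons, with the class median as a black bar and the median of all 13773 tested genes as a dashed line. The core and cap medians lie at -0.93 and -0.73 for 3D bioink versus tumour, 0.07 and 0.27 for 2D culture versus tumour, and -1.09 and -1.13 for 3D bioink versus 2D culture.

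Among the catalytic core members, Psmb6 (chromosome 11, 70525324 to 70527858, GRCm38) had values of 891, 1033 and 1091 in 3D bioink, 2516, 2500 and 2509 in 2D culture and 2800, 2646 and 2894 in tumours. The bioink libraries all lay below both other groups, which did not overlap each other either. Psmb6 fell 2.77-fold against tumours (log2 fold change -1.47, SE 0.08, adjusted p = 1.69e-07) and 2.50-fold against 2D culture (log2 fold change -1.32, SE 0.08, adjusted p = 4.34e-07). Its difference between 2D culture and tumours did not pass (log2 fold change -0.15, adjusted p = 0.130), although it did without 3D bioink replicate 1 (adjusted p = 0.0247) and when those 2 groups were fitted alone (adjusted p = 0.0247). The chymotrypsin-like subunit Psmb5 (chromosome 14, 54614120 to 54617995), the target of the inhibitor bortezomib, stood at 647, 507 and 630 in 3D bioink, 1283, 1334 and 1222 in 2D culture and 1398, 1194 and 1250 in tumours. The dish and tumour ranges overlapped, and the bioink fell 2.16-fold below tumours (log2 fold change -1.11, SE 0.10, adjusted p = 8.38e-06). Psmb7 (chromosome 2, 38588046 to 38643952) had 1194, 716 and 750 in 3D bioink, 1740, 1627 and 1584 in 2D culture and 1606, 1558 and 1795 in tumours. Within the gel, replicate 1 was well above the other two libraries, and its fall against tumours was 1.91-fold (log2 fold change -0.94, SE 0.17, adjusted p = 7.59e-04). Between 2D culture and tumours neither Psmb5 nor Psmb7 passed (adjusted p = 0.995 and 0.998), and the sign of each turned under at least 1 other scaling.

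The alpha ring gates entry to the barrel, and all 7 of its members fell in 3D bioink against tumours and against 2D culture. The largest falls against tumours were in Psma4 and Psma7. Psma4 averaged 1747 ± 258 in 3D bioink, 4483 ± 127 in 2D culture and 4397 ± 412 in tumours (SD, n = 3 each; log2 fold change -1.34 against tumours, adjusted p = 2.92e-06). It was also the core member that fell most against 2D culture (2.58-fold, adjusted p = 3.08e-06). Psma7 averaged 1955 ± 247, 4735 ± 90.2 and 4863 ± 179 in the same groups (log2 fold change -1.32 against tumours, adjusted p = 5.14e-07). The smallest fall against tumours was in Psma1, at 672 ± 66.1, 1252 ± 29.7 and 848 ± 12.7 (log2 fold change -0.34, adjusted p = 0.00354), which did not pass under 3 of 4 other scalings. Psma1 was higher in 2D culture than in tumours (log2 fold change 0.56, adjusted p = 1.78e-04), and its 3 groups did not overlap. The remaining alpha members had log2 fold changes between -1.10 (Psma5) and -0.59 (Psma3) for 3D bioink against tumours.

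Of the structural beta members, Psmb4 had 1079, 892 and 913 in 3D bioink, 2392, 2292 and 2094 in 2D culture and 2494, 2464 and 2384 in tumours, a 2.55-fold fall in bioink against tumours (log2 fold change -1.35, adjusted p = 4.76e-07). Psmb3 averaged 858 ± 19.5 in 3D bioink, 2138 ± 88.1 in 2D culture and 1599 ± 163 in tumours, and its 3 groups did not overlap. Psmb2 averaged 609 ± 197, 984 ± 85.2 and 1127 ± 104 in the same groups, and was the core member with the lowest log2 fold change in 2D culture against tumours (-0.19, adjusted p = 0.444). Psmb1 was the only constitutive core gene not called in either comparison of 3D bioink. It was listed at 253, 23 and 86 in 3D bioink, 105, 63 and 55 in 2D culture and 61, 71 and 22 in tumours, with all 3 groups overlapping and no comparison passing (adjusted p = 0.390, 0.524 and 0.873 in the order of the comparisons above). Its bioink value rests on replicate 1: without that library the log2 fold change against tumours was -0.04 in place of 0.79, and without replicate 2 it was 1.67 and passed (adjusted p = 0.0411). Per kilobase of the longest coding transcript in GENCODE M21, Psmb1 had the lowest mean level of the 14 in each group (61.3 in 3D bioink, 37.7 in 2D culture and 26.1 in tumours). Whether so low a value is the level of the gene or comes from how the authors' quantification assigned its reads cannot be told from the deposited table. The core median per kilobase was 786, 1610 and 1434 in those groups, and the highest member was Psma7 at 1689, 4093 and 4203.

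**Figure D2:**
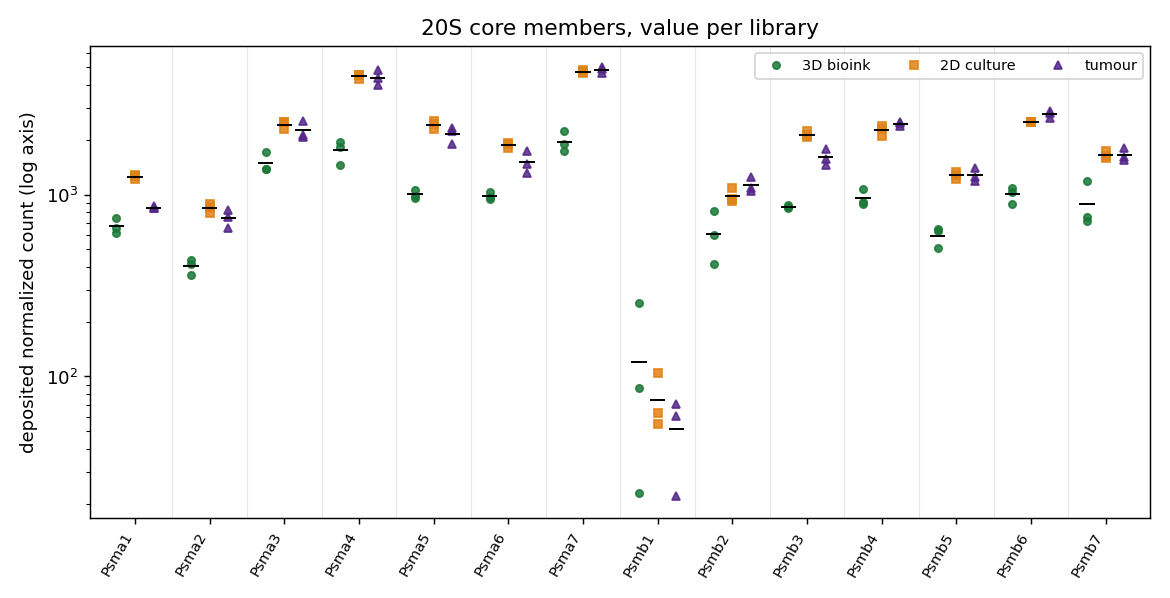
Deposited normalized count of the 14 constitutive core members in each library (log axis), with 3D bioink left, 2D culture middle and tumour right for each gene and a bar at the mean of 3. The bioink points lie below both other groups for 13 of 14 genes, the same 13 that were called lower against each group. Of all genes tested, 37.3% were called lower against tumours and 32.2% against 2D culture. Psmb1 is lowest in all groups, between 22 and 253.

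The ATPase ring of the cap is built from Psmc1 to Psmc6. In 3D bioink 5 of the 6 fell against tumours, led by Psmc3, with 1855, 2117 and 1997 in 3D bioink, 5272, 5197 and 5248 in 2D culture and 4839, 5119 and 5114 in tumours. That is a 2.53-fold fall against tumours (log2 fold change -1.34, SE 0.06, adjusted p = 4.52e-08) and a 2.64-fold fall against 2D culture (adjusted p = 5.48e-08). Psmc1, Psmc2, Psmc4 and Psmc5 had log2 fold changes of -0.98, -0.73, -0.93 and -0.94 against tumours. Psmc6 (chromosome 14, 45329823 to 45349074) went the other way, at 865, 529 and 511 in 3D bioink, 785, 788 and 802 in 2D culture and 340, 370 and 310 in tumours. Every culture library exceeded every tumour library, and Psmc6 rose 1.81-fold in 3D bioink (log2 fold change 0.86, SE 0.18, adjusted p = 0.00203) and 2.33-fold in 2D culture (log2 fold change 1.22, SE 0.18, adjusted p = 2.56e-04) against tumours. Between the cultures it did not pass (log2 fold change -0.36, adjusted p = 0.110), but without 3D bioink replicate 1, its highest library, it did (log2 fold change -0.61, adjusted p = 0.000497). Psmc6 also had the lowest mean level per kilobase of the 17 cap members in each group. It stood at 284 in 3D bioink, 354 in 2D culture and 152 in tumours, beside cap medians of 820, 1812 and 1410. Whether this is the level of the gene or comes from how its reads were assigned cannot be told from the deposited values. In 2D culture against tumours, 5 of the 6 ATPases rose, the exception being Psmc3 (log2 fold change 0.06, adjusted p = 0.390). Of these rises, that of Psmc4 (adjusted p = 0.0166) did not pass without 2D culture replicate 1 or 2 or tumour replicate 2 or 3 (adjusted p between 0.0539 and 0.0619).

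Of the other base members, the ubiquitin receptor Psmd4 (chromosome 3, 95032688 to 95042614) stood at 2048, 3063 and 2840 in 3D bioink, 6526, 6979 and 7041 in 2D culture and 7081, 6956 and 6677 in tumours. Dish and tumour libraries overlapped, and every bioink library lay far below both. Its bioink fall was 2.64-fold against tumours (log2 fold change -1.40, SE 0.12, adjusted p = 6.40e-06) and 2.62-fold against 2D culture (log2 fold change -1.39, SE 0.12, adjusted p = 8.29e-06). Per kilobase it had the highest mean level of the 17 cap members in each group (1509 in 3D bioink, 3900 in 2D culture and 3932 in tumours). The scaffold subunits Psmd1 and Psmd2 were highest in 2D culture. Psmd1 had 2648, 3341 and 3357 in 3D bioink, 5418, 5896 and 5603 in 2D culture and 2440, 2617 and 2678 in tumours, and rose 2.19-fold in 2D culture against tumours (log2 fold change 1.13, adjusted p = 3.38e-06). Its small rise in 3D bioink (log2 fold change 0.27, adjusted p = 0.0260, groups overlapping) did not pass without 3D bioink replicate 2 or 3, without tumour replicate 1 or 2, or in a fit of those 2 groups alone. Psmd2 averaged 3041 ± 98.1, 6671 ± 257 and 4262 ± 201 in 3D bioink, 2D culture and tumours, without overlap between groups.

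The lid carries the deubiquitinase that frees the ubiquitin chain, Psmd14 (chromosome 2, 61711694 to 61800376). It had 1051, 888 and 993 in 3D bioink, 1645, 1710 and 1626 in 2D culture and 1098, 1019 and 1005 in tumours. Bioink and tumour libraries overlapped (log2 fold change -0.09, adjusted p = 0.298, with the sign turning under 4 other scalings), while 2D culture stood 1.60-fold above tumours (log2 fold change 0.67, SE 0.07, adjusted p = 3.46e-05). Psmd6 and Psmd12 behaved alike in that they were higher in 2D culture than in tumours (log2 fold changes 0.91 and 0.62). Against tumours in 3D bioink, their log2 fold changes of -0.17 (passing) and -0.13 (adjusted p = 0.274) turned positive after quantile normalization, at equal upper quartiles and at equal sums. The fall of Psmd6 also did not pass with median ratio scaling (log2 fold change -0.06, adjusted p = 0.329), in a fit of those 2 groups alone (adjusted p = 0.0665) or without tumour replicate 2 (adjusted p = 0.0712). Psmd12 passed without 3D bioink replicate 1 (log2 fold change -0.26, adjusted p = 0.00572). By contrast Psmd7, a partner of Psmd14, had 1626, 2475 and 2468 in 3D bioink, 5819, 6230 and 6256 in 2D culture and 5698, 6100 and 5943 in tumours. It was the cap member that fell most in 3D bioink, 2.75-fold against tumours (log2 fold change -1.46, SE 0.14, adjusted p = 1.02e-05) and 2.84-fold against 2D culture (adjusted p = 1.02e-05). Psmd3, Psmd8, Psmd11 and Psmd13 fell against tumours by log2 fold changes of -0.89, -0.60, -0.54 and -0.79. All 8 lid members fell in 3D bioink against 2D culture, between 1.58-fold (Psmd8) and 2.84-fold (Psmd7).

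**Figure D3:**
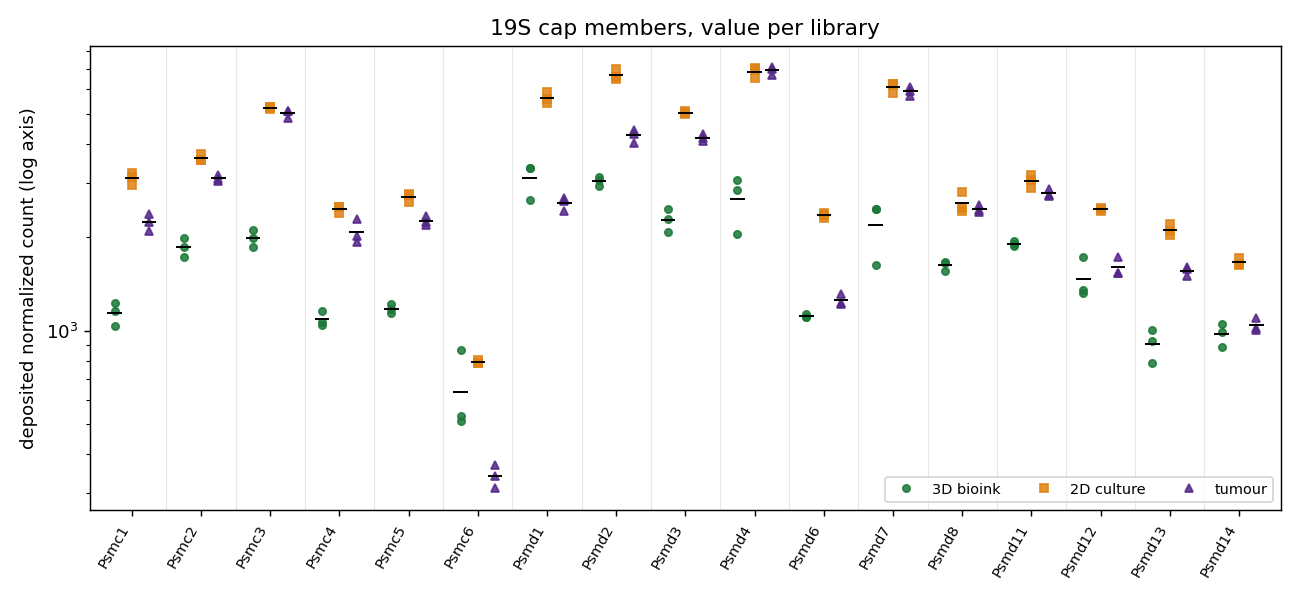
Deposited normalized count of the 17 cap members in each library (log axis), with 3D bioink left, 2D culture middle and tumour right for each gene and a bar at the mean of 3. All tumour values lie below all 2D culture values for 14 of the 17 genes, Psmc6 and Psmd1 among them. Of these 14, Psmc3 and Psmd11 were not called, and 12 were called higher in 2D culture, against 27.3% of all genes tested. The dish and tumour libraries overlap for Psmd4, Psmd7 and Psmd8. For Psmd4 and Psmd7 the bioink libraries lie between 1626 and 3063.

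Within the gel, replicate 1 departed from the other libraries in opposite ways for core and cap. It was the highest of the 3 bioink libraries for 10 of 14 core members and the lowest for 10 of 17 cap members. Summed over the core it had 14365, against 12446 and 13059 in replicates 2 and 3. Over the cap it had 27651, against 30015 and 29834. Without it, the median log2 fold change against tumours was -1.15 for the core and -0.69 for the cap, and 13 core members were still called lower. The median coefficient of variation over core members was 11.6% in 3D bioink, 4.55% in 2D culture and 9.31% in tumours. Over cap members it was 8.28%, 3.41% and 3.47% in those groups. Replicate 1 of 2D culture was the highest of its group for 7 core members and the lowest for 7 cap members. Replicate 1 of tumours was the highest of its group for 7 core and 8 cap members. Such counts over all genes were not made.

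Among the members that are subunits or activators, the 3 interferon-induced genes had the largest falls against tumours in both cultures. Psmb10 (chromosome 8, 105935728 to 105938392), the substitute for Psmb7, had 141, 153 and 167 in 3D bioink, 437, 371 and 358 in 2D culture and 3141, 2985 and 2622 in tumours. No group overlapped another, and tumours were highest and the gel lowest. Psmb10 was 18.9-fold lower in 3D bioink (log2 fold change -4.24, SE 0.11, adjusted p = 2.45e-09) and 7.49-fold lower in 2D culture (log2 fold change -2.91, SE 0.11, adjusted p = 2.11e-08) than in tumours. Between the cultures it was 2.52-fold lower in the gel (log2 fold change -1.33, SE 0.11, adjusted p = 5.28e-06).

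Psme1 (chromosome 14, 55578494 to 55581527) and Psme2 (chromosome 14, 55587440 to 55591101) encode the 2 chains of PA28 and lie near each other. Psme1 stood at 1370, 2023 and 1880 in 3D bioink, 3255, 3619 and 3706 in 2D culture and 18316, 21233 and 22419 in tumours. It fell 11.9-fold in 3D bioink (log2 fold change -3.57, SE 0.14, adjusted p = 2.56e-08) and 5.84-fold in 2D culture (log2 fold change -2.55, SE 0.14, adjusted p = 2.00e-07) against tumours. Psme2 stood at 1106, 1078 and 1049 in 3D bioink, 2405, 2436 and 2580 in 2D culture and 7342, 7499 and 7087 in tumours. Its falls against tumours were 6.78-fold in 3D bioink (log2 fold change -2.76, SE 0.05, adjusted p = 3.37e-10) and 2.95-fold in 2D culture (log2 fold change -1.56, SE 0.05, adjusted p = 6.36e-09). In both genes the groups kept the order of Psmb10 without overlap, and the fall was larger for Psme1 than for Psme2. Reads of Psme2 may be shared with Psme2b, a copy that is 99.4% identical over 794 bases and was listed at 10, 0 and 0 in 3D bioink, 16, 17 and 22 in 2D culture and 207, 166 and 165 in tumours. Psmb8 and Psmb9, the interferon-induced beta subunits left out of the counts, averaged 600 ± 111 and 103 ± 6.43 in 3D bioink, 735 ± 49.4 and 97.7 ± 5.86 in 2D culture and 11567 ± 819 and 2356 ± 37.2 in tumours (SD, n = 3 each). Their log2 fold changes against tumours were more negative than those of the 3 members, at -4.28 and -4.51 in 3D bioink and -3.97 and -4.58 in 2D culture. Neither passed between the cultures (adjusted p = 0.0538 and 0.587), although Psmb8 did without 3D bioink replicate 3 (log2 fold change -0.44, adjusted p = 0.00645).

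Ratios within a library do not depend on how libraries were scaled. The log2 ratio of Psmb10 to Psmb7 was -3.07, -2.22 and -2.16 in 3D bioink, -1.99, -2.13 and -2.14 in 2D culture and 0.97, 0.94 and 0.55 in tumours. Relative to tumours the ratio differed by -3.30 in 3D bioink and by -2.90 in 2D culture, and between the cultures by -0.40 (gel minus dish). The last of these rests largely on 3D bioink replicate 1, without which it was -0.10. An exact two-sided permutation test gave p = 0.1 for each of the 3, the smallest that 3 libraries against 3 allow (adjusted p = 0.12 over 6 ratio tests). The log2 ratio of Psme1 to the nuclear activator Psme3 was -0.82, -0.20 and -0.35 in 3D bioink, -0.29, -0.11 and 0.10 in 2D culture and 2.59, 2.76 and 2.83 in tumours. Both culture groups lay below every tumour library (exact permutation p = 0.1, adjusted p = 0.12), while the cultures overlapped and differed by -0.36 (gel minus dish; -0.18 without 3D bioink replicate 1; exact permutation p = 0.2, adjusted p = 0.2).

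Markers of immune cells were examined in the same libraries. The 6 macrophage and monocyte markers summed to 384 to 483 in 3D bioink, 148 to 172 in 2D culture and 27306 to 28085 in tumours, with Ly6c2 at 0 in all culture libraries. The 6 T and NK cell markers summed to 154 to 223, 76 to 94 and 239 to 331 in the same groups, and the 4 dendritic cell markers to 73 to 88, 26 to 34 and 3122 to 3640. All 3 sums were thus lower in both cultures than in tumours but higher in 3D bioink than in 2D culture, whereas Psmb10, Psme1 and Psme2 were lowest in 3D bioink. Within the lists, Cd3d averaged 146 ± 33.3 in 3D bioink and 111 ± 20.4 in tumours, and Ccr2 averaged 60.7 ± 43.8 in 3D bioink and 47.3 ± 4.04 in tumours (SD, n = 3 each), with the 2 groups overlapping for both. The dendritic sum in tumours was mostly Itgax, with means of 4, 0 and 3323 in 3D bioink, 2D culture and tumours. Xcr1 (36.3, 8.33 and 48.3) and Flt3 (29, 20 and 42.3) differed far less in those groups. Clec9a (11.7, 2 and 3) was highest in 3D bioink. Of 13 genes of interferon gamma signalling and peptide loading, 10 fell in 3D bioink and 12 in 2D culture against tumours, and none rose. These fallers were 76.9% and 92.3% of the list, against 37.3% and 27.0% of all genes. The transcription factor gene Nlrc5, lowest of the list in both, had 99, 35 and 58 in 3D bioink, 21, 37 and 72 in 2D culture and 1353, 2546 and 837 in tumours. Between the cultures 6 of the 13 rose in 3D bioink and 1 fell, with a median of 0.23, whereas Psmb10, Psme1 and Psme2 all fell. The list's risers there were 46.2%, against 27.0% of all genes. The kinase gene Jak2 rose most there, with 629, 453 and 398 in 3D bioink, 136, 129 and 181 in 2D culture and 493, 552 and 348 in tumours (log2 fold change 1.71, adjusted p = 1.14e-04). Socs1, an inhibitor of the pathway, had 105, 153 and 0 in 3D bioink, 40, 20 and 64 in 2D culture and 841, 340 and 0 in tumours and passed in no comparison. The part of these cells and signals in the result was not tested.

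**Figure D4:**
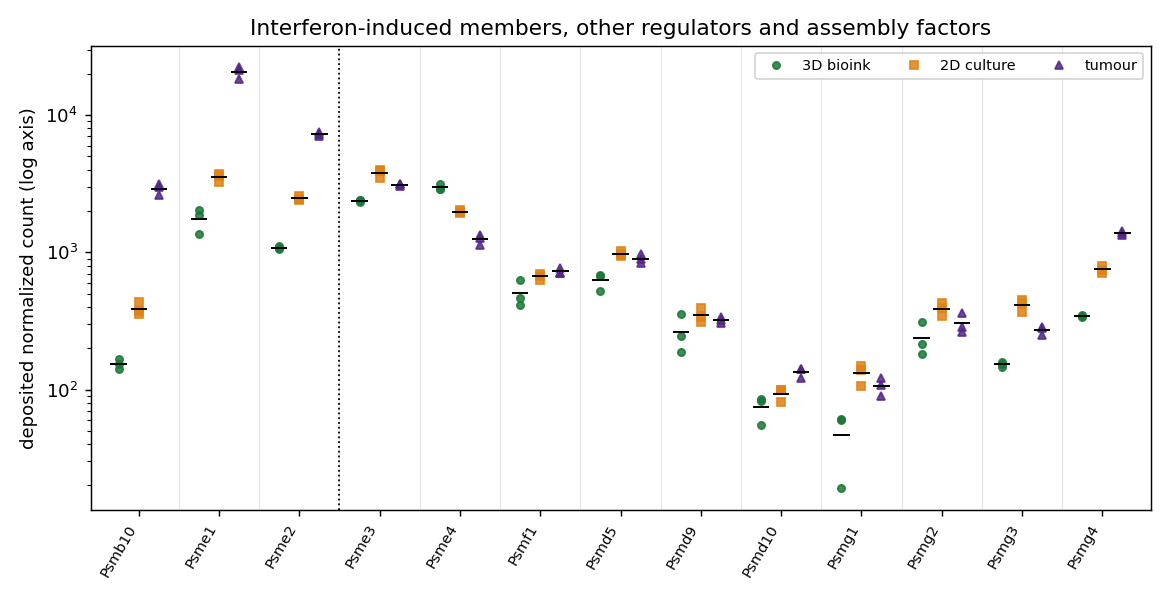
Deposited normalized count per library (log axis) of the 3 interferon-induced members (left of the dotted line) and of 10 other regulators and assembly factors, with 3D bioink left, 2D culture middle and tumour right for each gene and a bar at the mean of 3. Psmb10, Psme1, Psme2 and Psmg4 are lowest in 3D bioink and highest in tumours, and Psme4 runs the opposite way.

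Psme4 (chromosome 11, 30771775 to 30881150), which encodes the activator PA200, was the clearest exception to the fall in the gel. It had 2894, 2892 and 3139 in 3D bioink, 1954, 2025 and 1948 in 2D culture and 1131, 1343 and 1271 in tumours. No group overlapped another, and the order was the reverse of that of Psmb10. Psme4 rose 2.39-fold in 3D bioink against tumours (log2 fold change 1.25, SE 0.07, adjusted p = 2.92e-07), 1.59-fold in 2D culture against tumours (log2 fold change 0.67, SE 0.07, adjusted p = 2.56e-05) and also in 3D bioink against 2D culture (log2 fold change 0.59, SE 0.07, adjusted p = 5.94e-05). The nuclear activator Psme3 was lowest in 3D bioink and highest in 2D culture, with 2419, 2331 and 2398 in 3D bioink, 3985, 3911 and 3459 in 2D culture and 3051, 3130 and 3148 in tumours. It fell in 3D bioink against tumours (log2 fold change -0.38, adjusted p = 2.91e-04, not passing at equal sums) and rose in 2D culture against tumours (log2 fold change 0.28, adjusted p = 0.00268). Psmf1, which encodes the inhibitor PI31, stood at 631, 416 and 463 in 3D bioink, 700, 628 and 674 in 2D culture and 703, 701 and 771 in tumours. It fell 1.46-fold in 3D bioink against tumours (log2 fold change -0.55, adjusted p = 0.00642, not passing at equal sums). Its fall against 2D culture (adjusted p = 0.0238, groups overlapping) did not pass under any of 4 other scalings, or without 3D bioink replicate 2 or 3 or 2D culture replicate 1 or 3.

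The chaperones that assemble the core are encoded by Psmg1 to Psmg4. All 4 fell in 3D bioink against 2D culture, by log2 fold changes of -1.63, -0.74, -1.43 and -1.13. Psmg4 stood apart from the other assembly genes, with 341, 349 and 338 in 3D bioink, 712, 746 and 792 in 2D culture and 1372, 1432 and 1335 in tumours. It fell 4.02-fold in 3D bioink (log2 fold change -2.01, SE 0.07, adjusted p = 1.53e-08) and 1.84-fold in 2D culture (log2 fold change -0.88, SE 0.07, adjusted p = 3.59e-06) against tumours. Psmg3 averaged 153 ± 5.51 in 3D bioink, 415 ± 41.8 in 2D culture and 271 ± 19.4 in tumours, and its 3 groups did not overlap. Psmg1 was low, at 61, 60 and 19 in 3D bioink, 139, 149 and 106 in 2D culture and 90, 122 and 107 in tumours, and its fall against tumours (log2 fold change -1.33, adjusted p = 0.0173) did not pass without tumour replicate 2 (adjusted p = 0.0546). Psmg2 averaged 236 ± 67.6 in 3D bioink, 386 ± 41.6 in 2D culture and 303 ± 50.5 in tumours and did not pass against tumours in either culture (adjusted p = 0.126 for 3D bioink and 0.172 for 2D culture). Without 3D bioink replicate 1 the first of these passed (log2 fold change -0.60, adjusted p = 0.0120).

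Of the cap assembly factors, Psmd5 and Psmd10 (gankyrin) fell in 3D bioink against tumours (log2 fold change -0.53, adjusted p = 0.00183 and log2 fold change -0.86, adjusted p = 0.00746). At equal sums Psmd5 did not pass (log2 fold change -0.27, adjusted p = 0.0504). Psmd9 averaged 263 ± 83.7, 348 ± 42.4 and 321 ± 17.5 in 3D bioink, 2D culture and tumours and passed in no comparison, but without 3D bioink replicate 1 it passed against tumours (log2 fold change -0.57, adjusted p = 0.0109) and 2D culture (-0.68, adjusted p = 0.00498). None of the 3 passed in 2D culture against tumours, but Psmd10 did without 3D bioink replicate 2 (log2 fold change -0.52, adjusted p = 0.0478). Over the 10 genes of this class, 7 fell and 1 rose in 3D bioink against tumours, where 37.3% of all genes fell and 27.1% rose. In 2D culture against tumours 3 rose and 1 fell, where 27.3% of all genes rose and 27.0% fell. The share that rose there (30%) was thus near that of all genes. In 3D bioink against 2D culture, 7 fell and 1 rose, where 32.2% of all genes fell and 27.0% rose. Psmb11, the thymus variant of Psmb5, was low at 60, 49 and 55 in 3D bioink, 24, 26 and 29 in 2D culture and 27, 48 and 28 in tumours, and rose in 3D bioink against 2D culture (log2 fold change 1.03, adjusted p = 0.0187; 0.37 and not passing after quantile normalization). That rise did not pass without 3D bioink replicate 3 (adjusted p = 0.0504) or 2D culture replicate 1 (adjusted p = 0.0582). Psmc3ip, a meiotic recombination partner, is not a proteasome subunit. It averaged 281 ± 47.5 in 3D bioink, 846 ± 22.9 in 2D culture and 465 ± 29.1 in tumours. In the gel it fell against tumours and against 2D culture (-0.74 and -1.60 on the log2 scale).

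Proteasome parts and partners outside the naming rule were examined in a list of 17 tested genes. In 3D bioink against tumours 10 fell and 5 rose (median -0.29). In 2D culture against tumours 9 rose and 2 fell (median 0.20). In 3D bioink against 2D culture 11 fell and 3 rose (median -0.59). Fallers were 58.8%, 11.8% and 64.7% in turn, against 37.3%, 27.0% and 32.2% of all genes. Risers were 29.4%, 52.9% and 17.6%, against 27.1%, 27.3% and 27.0%. Pomp, the maturation factor of the core, fell most in the gel, with 723, 856 and 812 in 3D bioink, 1779, 2006 and 1661 in 2D culture and 2242, 2225 and 2173 in tumours (log2 fold change -1.48, adjusted p = 3.35e-07 against tumours). Usp14, a deubiquitinase of the cap, rose most in 2D culture, with 1299, 855 and 745 in 3D bioink, 1257, 1220 and 1162 in 2D culture and 450, 595 and 589 in tumours (log2 fold change 1.16, adjusted p = 4.82e-04). Zfand5, a proteasome-binding protein that stimulates degradation, ran opposite to the core between the cultures. It had 8642, 6133 and 6916 in 3D bioink, 1440, 1358 and 1289 in 2D culture and 3356, 3128 and 3351 in tumours (log2 fold change 2.39 in 3D bioink against 2D culture, adjusted p = 1.12e-07; -1.27 in 2D culture against tumours). Ddi2, the protease that activates NFE2L1, was highest in the gel, with 1513, 1383 and 1259 in 3D bioink, 1000, 977 and 1071 in 2D culture and 478, 605 and 698 in tumours (log2 fold change 1.23, adjusted p = 2.01e-05 against tumours).

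Of 14 genes of the NFE2L1 and NFE2L2 axis, 5 rose and 6 fell in 3D bioink against tumours (median -0.05). In 2D culture against tumours 3 rose and 7 fell (median -0.21). In 3D bioink against 2D culture 7 rose and 3 fell (median 0.39). Risers were 35.7%, 21.4% and 50% in turn, against 27.1%, 27.3% and 27.0% of all genes. Fallers were 42.9%, 50% and 21.4%, against 37.3%, 27.0% and 32.2%. Nfe2l1 itself averaged 5652 ± 477, 5065 ± 227 and 6745 ± 121 in 3D bioink, 2D culture and tumours (SD, n = 3 each). It fell against tumours in 3D bioink (log2 fold change -0.26, adjusted p = 0.00594) and in 2D culture (log2 fold change -0.41, adjusted p = 4.02e-04), and did not pass between the cultures (log2 fold change 0.16, adjusted p = 0.0638). The bioink fall did not pass under any of the 4 other scalings and its sign turned after quantile normalization and at equal sums, while the difference between the cultures passed under all 4 (log2 fold changes 0.25 to 0.45) and without 3D bioink replicate 1 (0.23, adjusted p = 0.00219). It was named after its values were seen. The glutathione synthesis gene Gclc rose most in 3D bioink against tumours, with 1225, 1297 and 1322 in 3D bioink, 1102, 1087 and 1189 in 2D culture and 434, 351 and 306 in tumours (log2 fold change 1.83, adjusted p = 6.56e-07), and Keap1, the repressor of NFE2L2, fell most, with 190, 427 and 380 in 3D bioink, 685, 577 and 741 in 2D culture and 487, 906 and 724 in tumours (log2 fold change -1.12, adjusted p = 0.00918; -1.08 against 2D culture). In 2D culture against tumours the quinone reductase Nqo1 rose most (log2 fold change 2.00, adjusted p = 0.00305) and the small MAF gene Maff fell most, with 1213, 1072 and 1007 in 3D bioink, 239, 286 and 279 in 2D culture and 2324, 2281 and 2465 in tumours (log2 fold change -3.14, adjusted p = 4.14e-09). Maff was also the strongest riser of 3D bioink against 2D culture (log2 fold change 2.03, adjusted p = 1.25e-07).

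Of 12 ubiquitin and ubiquitin-enzyme genes, 3 rose and 6 fell in 3D bioink against tumours (median -0.37). In 2D culture against tumours 3 rose and 2 fell (median -0.02). In 3D bioink against 2D culture 2 rose and 5 fell (median -0.29). Risers were 25%, 25% and 16.7% in turn, against 27.1%, 27.3% and 27.0% of all genes. Fallers were 50%, 16.7% and 41.7%, against 37.3%, 27.0% and 32.2%. Uba6, an activating enzyme, rose most in the gel, with 1140, 935 and 969 in 3D bioink, 501, 461 and 578 in 2D culture and 357, 307 and 330 in tumours (log2 fold change 1.61, adjusted p = 1.50e-06 against tumours; 0.98 against 2D culture). Ube2n, a conjugating enzyme, rose most in 2D culture (log2 fold change 1.34, adjusted p = 0.00125).

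Of 16 genes of the p97 unfoldase and endoplasmic reticulum degradation, 2 rose and 10 fell in 3D bioink against tumours (median -0.32). In 2D culture against tumours 5 rose and 5 fell (median 0.17). In 3D bioink against 2D culture 5 rose and 7 fell (median -0.11). Risers were 12.5%, 31.25% and 31.25% in turn, against 27.1%, 27.3% and 27.0% of all genes. Fallers were 62.5%, 31.25% and 43.75%, against 37.3%, 27.0% and 32.2%. Vcp, which encodes p97, had 9203, 9598 and 9706 in 3D bioink, 15010, 14906 and 14787 in 2D culture and 9495, 9555 and 9355 in tumours, and was the strongest riser of 2D culture against tumours (log2 fold change 0.65, adjusted p = 4.91e-07). The lectin Os9 fell most there (log2 fold change -1.36, adjusted p = 2.64e-06). The p97 cofactors Ubxn1 and Ubxn7 were the extremes in the gel. Ubxn1 had 1193, 2705 and 2298 in 3D bioink, 3370, 3684 and 4003 in 2D culture and 4948, 5280 and 5106 in tumours (log2 fold change -1.39, adjusted p = 6.46e-04 against tumours), and Ubxn7 had 1705, 1450 and 1530 in 3D bioink, 961, 931 and 885 in 2D culture and 737, 449 and 793 in tumours (log2 fold change 1.28, adjusted p = 1.65e-04 against tumours).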

How the data were processed

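The deposited values are a score: normalized counts per gene that the authors rounded to whole numbers, by a scaling method that is not stated, in 1 deposited table of 20778 gene symbols and 9 libraries, 2865 of them at 0 throughout. The submitters' processing notes name kallisto, RSEM, DESeq, DESeq2 version 1.24.0 and the build mm10, with no role or order. Read depth is unknown and is not given in the sources used here, and neither is whether counting used strand, so overlapping and antisense genes cannot be separated.

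Because the values are not raw counts, log2(value + 1) was tested with limma 3.58.1 in R 4.3.3 (trended variance, all 9 libraries in 1 fit), on the 13773 genes with a mean of at least 10, with Benjamini-Hochberg adjustment over all of them and a threshold of 0.05. Fold changes are on the log2(value + 1) scale and understate changes of low genes. The fit was tested on simulated data with 200 changed genes. Within-library ratios were compared by exact permutation. Members followed the naming rule, and the members and gene lists were chosen with earlier results of these data known. Values in each library are given for the catalytic, interferon-induced and activator genes, Psmd4, Psmd14 and Psmf1, and for the highest and lowest member of each class and gene of each list per comparison. Other members are named to account for all of them. Some list genes that this rule names, and 1 promoter motif, are not reported here. Promoter windows came from RefSeq GRCm38.p6, gene coordinates from RefSeq and transcript lengths from GENCODE M21. Alternatives were 4 other scalings, other pseudocounts and filters, library weights, a replicate block, fits of 2 groups and leaving out each library.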

Additional observations from a re-analysis of the deposited data

How the results depend on the processing

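The core and cap medians in 3D bioink kept their sign against tumours and 2D culture under every setting run, with 12 to 13 core and 12 to 14 cap members called lower against tumours and 13 core and 16 to 17 cap members against 2D culture. Their size depended on scaling. After quantile normalization, at equal upper quartiles, with median ratio scaling and at equal sums, in that order, the core median was -0.77, -0.75, -0.83 and -0.67 against tumours and -0.93, -0.92, -0.99 and -0.89 against 2D culture. The cap median was -0.52, -0.55, -0.63 and -0.47 and -0.88, -0.96, -1.04 and -0.94 in the same comparisons, and -0.66 against tumours with library weights. In 2D culture against tumours the cap median was 0.33 after quantile normalization and 0.33 at equal sums, where the core median was 0.14. Members called higher in 3D bioink against 2D culture numbered 1 after quantile normalization, where Psmb11 did not pass (adjusted p = 0.363). They also numbered 1 with a mean of at least 50, a filter that leaves Psmb11 untested. Fits of 2 groups alone called 1 cap member higher in 3D bioink and 1 core member lower in 2D culture against tumours. In these fits Psmd1 did not pass (adjusted p = 0.0532) and Psmb6 did (adjusted p = 0.0247). The cause of the shifts with scaling was not tested.

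With each library left out in turn, the core median ranged over -1.15 to -0.86 for 3D bioink against tumours and -1.17 to -0.99 against 2D culture, and the cap median over -0.75 to -0.68 and -1.14 to -1.09. The cap median was 0.27 to 0.32 in 2D culture against tumours. Cap members called higher in 3D bioink against tumours numbered 1 to 2 and core members 0 to 1. Core members called lower in 2D culture against tumours numbered 0 to 1, and members called higher in 3D bioink against 2D culture 1 to 2.

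Signs that turned belonged to small or unstable differences. In 3D bioink against tumours they were Psmd12 (0.0292, 0.0526 and 0.13) and Psmd6 (0.00651, 0.0154 and 0.0946) after quantile normalization, at equal upper quartiles and at equal sums, Psmd14 (0.0871, 0.0901, 0.0120 and 0.17 under the 4 scalings) Jak2 (-0.17 with library weights, -0.11 to 0.23 with libraries left out) and Nfe2l1 (0.0890 after quantile normalization, 0.00403 at equal sums). In 2D culture against tumours they were Psma7 (0.0217 and 0.0271), Psmb11 (0.34), Psmb5 (-0.00681), Psmd4 (0.0127, 0.00204 and 0.0528) and Psmb7 (0.0134, 0.00836, 0.0642 and, with library weights, 0.0103). With libraries left out, the ranges there were -0.0347 to 0.10 for Psma4, -0.0478 to 0.0659 for Psmb5, -0.0421 to 0.0600 for Psmb7, -0.0361 to 0.0223 for Psmd4, -0.00266 to 0.0988 for Psmd8, -0.00626 to 0.0616 for Cops7a and -3.81 to 1.05 for Socs1. In 3D bioink against 2D culture they were Mki67 (0.13, 0.0968, 0.0237 and 0.13 under the 4 scalings), Psmb1 (-0.26 after quantile normalization, -0.66 to 1.04 with libraries left out) Psmb9 (-0.15 after quantile normalization) and Socs1 (0.25 with a pseudocount of 10, -1.89 to 1.74 with libraries left out). For Psmb1 against tumours the range was -0.0353 to 1.67.

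Deviations from group means correlated at -0.03 to 0.08 between same-numbered libraries of different groups, and at -0.06 to 0.05 between differently numbered ones. Correlations this weak, from 3 libraries a group, cannot settle whether libraries were paired. With the replicate number as a block, 38 members were called lower and 3 higher in 3D bioink against tumours, 5 lower and 19 higher in 2D culture against tumours, and 41 lower and 2 higher in 3D bioink against 2D culture, and Nfe2l1 passed between the cultures (adjusted p = 0.0395), while no other call of a named gene changed. The settings were applied to Nfe2l1, Psmb8 and Psmb9 after seeing the data. Read depth is unknown, so how far counting error limits low members such as Psmb1, Psmg1 and Psmb11 cannot be given.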

Other observations

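Other large complexes were measured in the same libraries. Of 15 tested genes of the CCT chaperonin, which folds cytoskeletal proteins, and the COP9 signalosome, a relative of the proteasome lid, 9 fell and 3 rose in 3D bioink against tumours (median log2 fold change -0.44). In 2D culture against tumours 13 rose and none fell (median 0.67). Fallers and risers in the gel were 60% and 20% of the list, against 37.3% and 27.1% of all genes. Risers in 2D culture were 86.7%, against 27.3%. Cops7a had 702, 1027 and 791 in 3D bioink, 2015, 2002 and 1956 in 2D culture and 2003, 1996 and 1823 in tumours, the lowest log2 fold change of the list in 3D bioink against tumours (log2 fold change -1.22, adjusted p = 1.17e-05) and in 2D culture against tumours (log2 fold change 0.04, adjusted p = 0.813). Cops2 had 1113, 1052 and 1134 in 3D bioink, 924, 878 and 834 in 2D culture and 384, 420 and 414 in tumours, and rose in 3D bioink against tumours (log2 fold change 1.44, adjusted p = 1.75e-07) and against 2D culture (log2 fold change 0.32, adjusted p = 0.00396). Cct8 rose most in 2D culture against tumours (log2 fold change 1.38, adjusted p = 5.57e-07), and Cct3 fell most in 3D bioink against 2D culture (log2 fold change -1.32, adjusted p = 4.40e-08).

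Of 14 proliferation genes, 5 fell and 4 rose in 3D bioink against tumours (median 0.02). These shares, 35.7% and 28.6%, were near the 37.3% and 27.1% of all genes. In 2D culture against tumours 12 rose and none fell (median 1.22). Risers there were 85.7%, against 27.3% of all genes. The mitotic kinase gene Bub1 had 250, 316 and 355 in 3D bioink, 533, 577 and 549 in 2D culture and 129, 116 and 82 in tumours, the strongest rise against tumours in 3D bioink (2.82-fold, adjusted p = 7.26e-05) and in 2D culture (log2 fold change 2.36, adjusted p = 3.49e-06). The replication gene Mcm3 fell most in 3D bioink against tumours (log2 fold change -1.27, adjusted p = 3.55e-06), and Rrm2, a subunit of ribonucleotide reductase, fell most against 2D culture, with 667, 662 and 700 in 3D bioink, 2687, 2573 and 2663 in 2D culture and 780, 616 and 665 in tumours (log2 fold change -1.96, adjusted p = 9.18e-08). Mki67 had 1710, 1871 and 1910 in 3D bioink, 1858, 1936 and 1974 in 2D culture and 1724, 1817 and 1754 in tumours and passed in no comparison.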
